A study of Mus musculus with 2 samples.

Results

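Interferon regulatory factors (IRFs) are transcription factors that bind DNA through a conserved helix-turn-helix domain and read repeats of a GAAA core. Some wait in the cytoplasm until kinases downstream of innate sensors phosphorylate them, whereas others act mainly through how much of them a cell makes. In macrophages the family is known both for interferon and inflammatory programs and, in the case of IRF4, for the program that IL-4 starts. The genes described are the 8 family members Irf1, Irf2, Irf3, Irf4, Irf5, Irf7, Irf8 and Irf9, of 20656 genes that could be named on the array. They were chosen by name, and every gene probe whose RefSeq accession belongs to one of them was taken, which gave 9 probes.

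RNA came from bone marrow-derived macrophages (BMDMs) of male mice of the Crif1 f/f genotype, 8 weeks of age, cultured with M-CSF and either left untreated or treated with IL-4 for 18 h. Both conditions carried the floxed Crif1 allele, for which the methods of the array experiment state no Cre, and the IL-4 dose of that experiment is not stated. Each condition was read on 1 single-colour Agilent array, and the number of animals behind each RNA is not given for it, although the methods on animals speak in general of independent replicates with several mice per group. No difference below therefore has a replicate check, and no p-value is given. The errors quoted are the scanner software's estimates or the spread between spots, and neither covers the cultures. Levels are given as spot intensity after background subtraction, and differences as log2 of IL-4 over untreated once each array had been scaled to its own 75th percentile. A signal is called well above background, or detected, where the scanner software flagged it so. In bulk RNA of this kind, fewer cells of a type and less RNA per cell cannot be told apart.

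The probes for 7 of 7 matched macrophage markers were well above background on both arrays, among them Adgre1 (F4/80) and Csf1r. Their summed intensity was 296935 on the untreated array and 273913 after IL-4. Their differences ranged from -1.42 to 0.17 on the log2 scale, and Cd14, Fcgr1 and Mertk were 2.68-fold, 2.34-fold and 2.20-fold lower after IL-4. Of the B cell markers, 4 of 5 were at background on both arrays, including Ms4a1 and Pax5. Of the T cell genes, Cd3d and Cd3g were at background on both arrays, Cd3e (343 and 296) and Lck (120 and 90.0) were detected on both, and Cd2 was detected on the untreated array only. Of the conventional dendritic cell genes, Flt3, Xcr1 and Clec9a were at background on both arrays, and Zbtb46 (48.2 and 36.1) and Ccr7 (39.7 and 39.9) were detected on both. Of the plasmacytoid list, Siglech was bright on both arrays (29067 and 31659). Klk1 was at background on both, Ccr9 (27.6 and 36.3) was detected after IL-4 only, and Ly6d was dim on both. The summed intensity of the B cell list was 570 untreated and 431 after IL-4, and that of the T cell list 531 and 406. The plasmacytoid list summed to 29181 and 31737, nearly all of it Siglech, and the conventional dendritic cell list to 136 and 113. Neutrophil granule genes summed to 5647 and 4329, with differences from -0.80 to 0.30, and the fibroblast genes, led by Col1a2, to 313097 and 306465, with differences from -0.34 to 0.51. No marker of these lists was 2-fold higher after IL-4, and Ly6d was 2.49-fold lower. The part of these cells in the IRF results was not tested.

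The 250 bases before the annotated start of the 4 members whose signal after IL-4 reached 1.5-fold or more are shown to let their upstream sequences be compared. They come from RefSeq on GRCm38.p6, written 5′ to 3′ on the strand of the gene, with every match of a searched motif in capitals. Irf4 lies on the plus strand at chr13:30748983-30749232, Irf7 on the minus strand at chr7:141266425-141266674, Irf1 on the plus strand at chr11:53769764-53770013 (the first of its 2 annotated starts) and Irf2 on the plus strand at chr8:46739495-46739744.
Irf4: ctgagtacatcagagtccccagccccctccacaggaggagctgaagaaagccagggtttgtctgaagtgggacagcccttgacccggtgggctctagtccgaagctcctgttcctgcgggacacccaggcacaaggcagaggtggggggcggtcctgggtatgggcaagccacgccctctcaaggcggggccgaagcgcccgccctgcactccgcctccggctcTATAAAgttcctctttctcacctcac
Irf7: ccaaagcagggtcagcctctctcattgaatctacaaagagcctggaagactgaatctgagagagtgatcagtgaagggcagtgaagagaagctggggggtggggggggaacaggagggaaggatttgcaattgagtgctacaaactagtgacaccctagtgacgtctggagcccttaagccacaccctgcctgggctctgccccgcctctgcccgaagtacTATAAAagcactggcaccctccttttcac
Irf1: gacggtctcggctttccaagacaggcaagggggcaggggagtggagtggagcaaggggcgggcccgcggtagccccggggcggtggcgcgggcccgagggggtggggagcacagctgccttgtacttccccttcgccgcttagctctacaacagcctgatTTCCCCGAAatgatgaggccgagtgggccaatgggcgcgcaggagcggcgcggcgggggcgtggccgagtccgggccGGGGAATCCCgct
Irf2: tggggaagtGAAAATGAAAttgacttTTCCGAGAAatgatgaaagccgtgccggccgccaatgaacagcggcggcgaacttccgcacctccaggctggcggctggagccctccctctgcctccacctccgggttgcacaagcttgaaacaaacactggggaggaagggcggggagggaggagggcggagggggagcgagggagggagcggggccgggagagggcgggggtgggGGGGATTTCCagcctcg

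Motifs were searched on both strands in the 11 upstream windows of the 8 genes, and a match is a description of the letters only. The interferon-stimulated response element (ISRE), GAAANNGAAA, to which the IRFs themselves bind, was found upstream of Irf2, 241 bases before the start, and in 2.98% of all 32851 promoter windows of the same length. The STAT site known as GAS, TTCNNNGAA, was present at 90 bases upstream of Irf1, 224 bases upstream of Irf2, and 171 and 153 bases upstream of the first start of Irf8, against 7.02% of all windows. The wider spacing TTCNNNNGAA, which STAT6 prefers, occurred in none of the 11 windows and in 5.85% of all. The AP-1 site TGANTCA also occurred in none of the 11 and in 6.75% of all. An NF-kappaB site lay 13 bases before the start of Irf1 and 17 bases before that of Irf2, against 5.0% of all windows. The TATA box letters TATAAA, which were added to the search after the sequences had been seen, lay 26, 29 and 31 bases upstream of Irf4, Irf7 and Irf8, against 12.4% of all windows. The motifs did not overlap one another. Irf4 and Irf7, whose values follow, thus had the TATAAA letters and none of the other motifs in this window, whereas Irf1 and Irf2 had GAS and NF-kappaB letters and no TATAAA. Irf8 had both the GAS and the TATAAA letters.

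**Figure D1:**
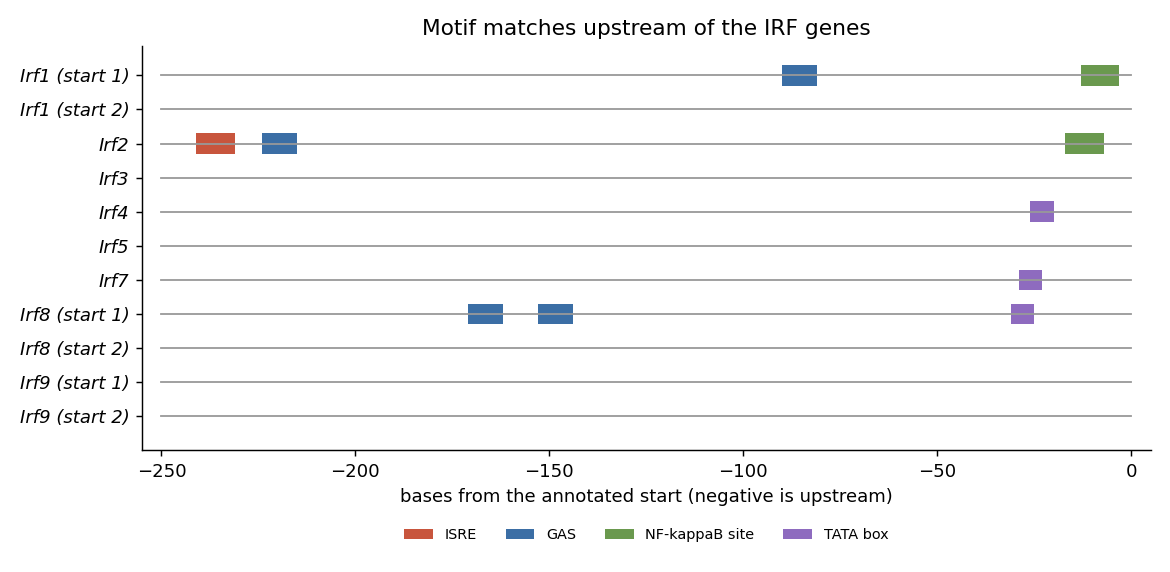
Positions of the motif matches in the 250 bases upstream of each annotated start of the 8 IRF genes, with the distance from the start in bases on the x axis and 1 line per start. Matches lie upstream of Irf1, Irf2, Irf4, Irf7 and Irf8, and the windows of Irf3, Irf5, Irf9, the second start of Irf1 and the second start of Irf8 hold none.

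The family did not move as a block after IL-4. Irf4 went from a signal not called well above background to a clear one, and Irf7 was 2.53-fold higher. Irf2 and Irf1 were 1.56-fold and 1.52-fold higher, and the other 4 genes lay within 1.5-fold of the untreated array. All 8 genes were well above background after IL-4, and 7 were on both arrays. Irf4 passed only through the IL-4 array, so it could only differ upward. Of the 8, 2 were higher by 2-fold or more and 0 were lower by as much, where 2.86% of the 19743 genes detected on either array passed the same cutoff upward and 4.47% passed it downward. At the lower cutoff of 1.5-fold, 4 members were higher and 0 lower, against 6.11% and 11.0% of those genes. These shares depend on the scaling: 564 genes were higher and 883 lower as reported, 828 and 564 with median scaling, 801 and 532 with quantile normalization, 693 and 632 with cyclic loess, and 954 and 495 with spike-in scaling. The median log2 difference of the 8 genes was 0.43, where that of all 19743 genes was -0.03. It was 0.26 over the 7 genes measured on both arrays, which leaves out Irf4, and 0.72 over all 8 with spike-in scaling, where the median of all genes was 0.26. Each of the 9 probes was printed in 1 spot, and none was flagged as an outlier or saturated.

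**Figure D2:**
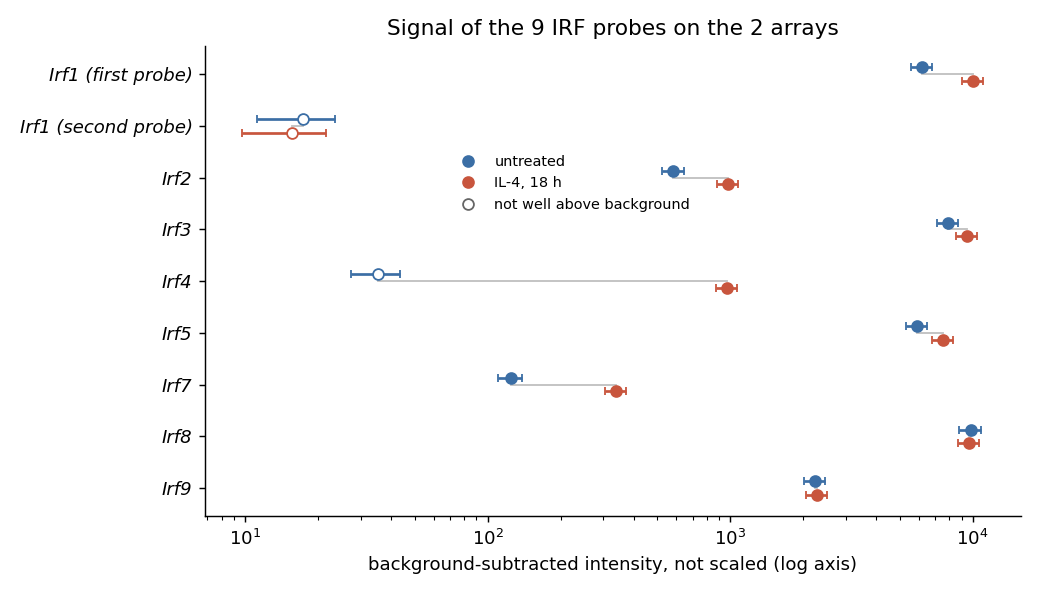
Background-subtracted intensity of the 9 IRF probes on the untreated array (blue) and the array of BMDMs treated with IL-4 (red), on a log axis without scaling between arrays, with bars for the error that the scanner software estimated for the spot and open circles for signals not well above background. Irf4 moved from an open circle at 35.4 to 970, and the second Irf1 probe is an open circle on both arrays.

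Irf4 is made in lymphocytes and in macrophages exposed to IL-4 and binds many sites only with a partner such as PU.1 or BATF. Its probe (A_55_P2109445) had an intensity of 35.4 ± 8.04 on the untreated array, which was not well above background, and of 970 ± 97.2 on the IL-4 array, where the ± is the error estimated by the software. The untreated signal thus lacked the flag and the IL-4 signal had it. The untreated spot had a median pixel intensity of 92, where the highest of 153 negative control spots on that array read 82. After scaling to the 75th percentile of each array, Irf4 was 25.6-fold higher after IL-4 (log2 difference of 4.68). As the untreated signal lacked the flag, this value is called a bound. The bound was set by the untreated signal of the probe itself, because that exceeded 29.2, the lowest intensity called well above background on that array. It therefore equals the plain ratio, and the true fold may be lower or higher. The untreated error was 22.7% of the signal, and the error model gave an SE of 0.36. With another background correction (normexp on the median pixel intensity, which adds an offset of 50 to every signal) the bound fell to 7.93-fold. The other genes measured only after IL-4 that lay nearest to Irf4 in this bound were Rasgrp1, an activator of RAS, at 26.9-fold, Tmem26 at 28.7-fold and Cdh1, which encodes E-cadherin, at 17.9-fold. These likenesses rest on the difference between 2 arrays and, being bounds, have no order.

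Irf7, the amplifier of the type I interferon response, is kept low in resting cells and is itself an interferon-stimulated gene. Its probe (A_51_P421876) read 125 ± 14.4 on the untreated array and 338 ± 34.5 after IL-4, and both signals were well above background. The IL-4 array was the higher, by 1.34 on the log2 scale, or 2.53-fold. The error model gave an SE of 0.22 for this difference. Probes printed in 10 spots at a similar signal had a median SD between spots of 0.10 (n = 51 probes). Irf7 was the 190th highest difference among the 17242 genes measured on both arrays. With normexp the difference fell to 0.84, which is below 2-fold.

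Irf1 is a rapidly induced activator downstream of interferon gamma, and Irf2 binds much the same DNA and is best known as its antagonist. The Irf1 probe A_55_P2000062 read 6175 ± 618 in untreated BMDMs and 10075 ± 1008 after IL-4. The Irf2 probe A_51_P316523 read 584 ± 58.8 and 978 ± 97.9. Both genes were therefore higher on the IL-4 array, Irf1 by 0.61 (SE 0.20) and Irf2 by 0.64 (SE 0.20) on the log2 scale. The activator and its antagonist differed from each other by 0.04 in this measure, which is smaller than either error. A second Irf1 probe, A_55_P2000067, designed on the transcript NM_001159393, read 17.3 and 15.6 and was at background on both arrays. The Irf1 value therefore rests on 1 of its 2 probes.

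Irf3 and Irf5 encode factors that are present before stimulation and are switched on by phosphorylation, Irf3 by TBK1 after nucleic acid sensing and Irf5 downstream of MyD88. Irf3 read 7931 ± 793 in untreated BMDMs and 9522 ± 952 after IL-4 on probe A_55_P2083939. Irf5, which is linked to inflammatory macrophage activation, read 5912 ± 591 and 7569 ± 757 on probe A_51_P346668. The log2 differences were 0.16 for Irf3 and 0.26 for Irf5, each with an SE of 0.20 from the error model. Only the second exceeded its SE, and the 2 differences were 0.09 apart. The spread between spots of replicated probes was smaller, at 0.05 for both.

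Irf8 is required for the development of monocytes and dendritic cells and partners with PU.1, and Irf9 is the DNA-binding subunit of the complex that type I interferon assembles. Irf8 read 9805 ± 981 in untreated BMDMs and 9663 ± 966 after IL-4 on probe A_52_P354823. Irf9 read 2242 ± 224 and 2277 ± 228 on probe A_55_P2114938. The signals of each gene on the 2 arrays lay within 1 error of each other. After scaling the log2 differences were -0.12 for Irf8 and -0.08 for Irf9, both smaller than the SE of 0.20, and the sign of each turned under 3 of 12 alternative settings. Under spike-in scaling, for example, they were 0.17 and 0.21. Within 0.05 log2 units of Irf8 lay 1688 other genes measured on both arrays, the nearest being Lin9, Grk6 and Fam160a2.

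**Figure D3:**
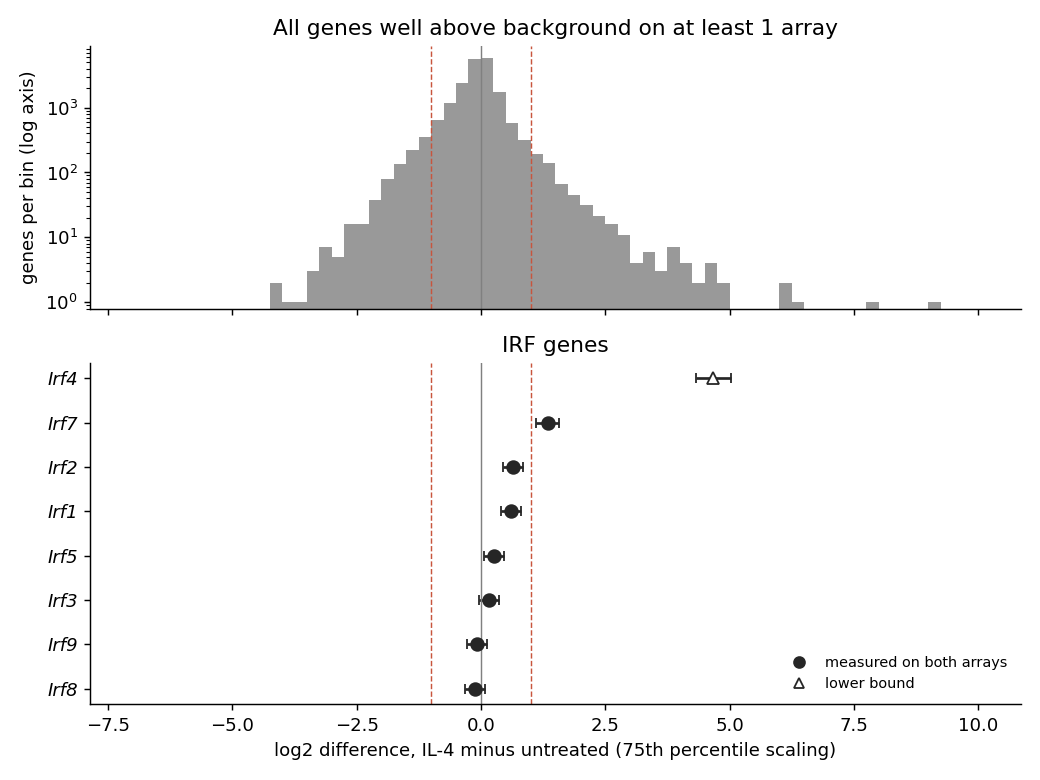
Upper panel, number of genes per bin of 0.25 in log2 difference (IL-4 minus untreated) on a log axis, over all genes detected on either array. Lower panel, the log2 difference of each IRF gene with the SE of the scanner software's error model and dashed lines at 2-fold. The open triangle is Irf4, whose bound equals the plain ratio of its signals. Irf4 and Irf7 lie beyond the upper line and Irf8 and Irf9 around 0.

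Ordered by their difference, the members fell into steps. Irf4 came first, with a bound 3.34 above Irf7, and Irf7 was 0.70 above Irf2. Irf1 and Irf2 formed a pair, 0.35 or more above Irf5. Irf3 and Irf5 formed the next pair, and Irf3 was 0.24 above Irf9. Within the pairs Irf1 and Irf2, Irf3 and Irf5, and Irf8 and Irf9 the genes did not differ beyond the SE of the error model. That SE belongs to 1 gene, and a gap between 2 genes carries the errors of both. The gaps from Irf3 to Irf9 (0.24) and to Irf8 (0.28) were within that combined error, so this step is not resolved. With normexp the gap from Irf7 to Irf1 fell to 0.18 and that from Irf5 to Irf8 to 0.14, also within it. This order of steps was the same under every alternative setting that gave a value, although the whole family moved up or down with the scaling. Most of those settings could not change the order. They shifted each array by 1 constant or left the signals of these probes nearly as they were. Quantile normalization, cyclic loess and normexp could have changed it, and the order of steps held under them. Scaling on 7 spike-in probes moved the median of all 19743 genes from -0.03 to 0.26, and scaling on the array median moved it to 0.18, so the differences are best read against those medians.

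**Figure D4:**
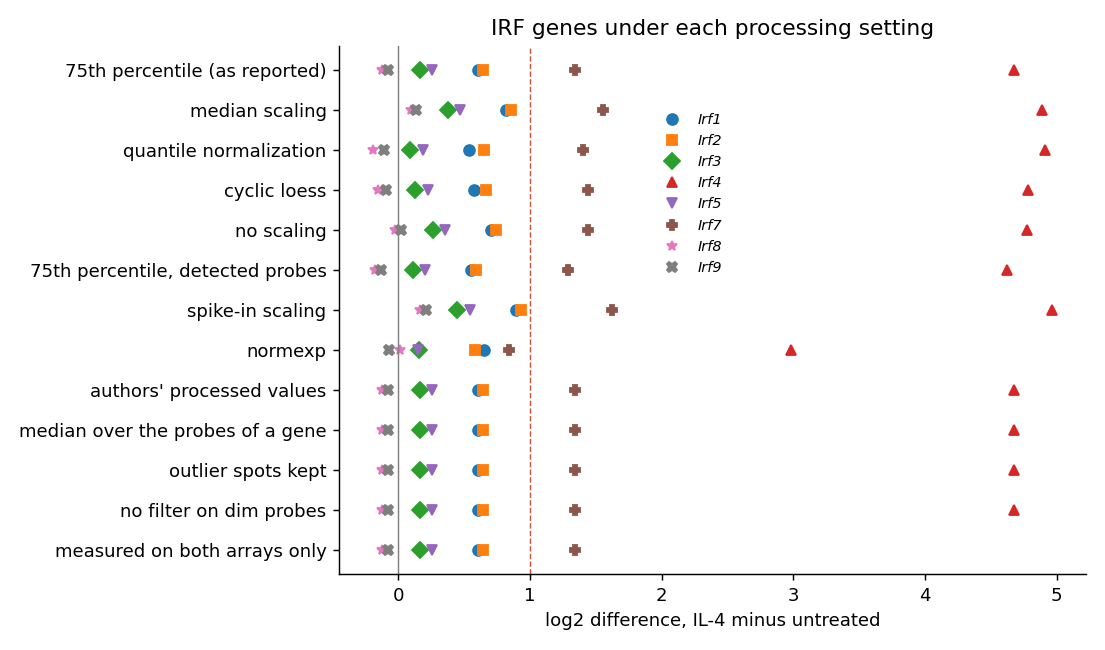
Log2 difference (IL-4 minus untreated) of each IRF gene, 1 symbol per gene, under the reported setting and 12 alternatives, with a dashed line at 2-fold. Irf4 lies right of the line in every setting that gives it a value, Irf7 lies left of it with normexp, and Irf8 and Irf9 change sides of 0.

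The genes around the family were read from lists of known regulators, partners and targets, whose members were chosen with earlier results of these data in view. Their counts are to be read beside the 2.86% of all genes that were 2-fold or more higher and the 4.47% that were lower, and a short list with no such gene is near those shares. Of 17 kinases, sensors and adaptors that activate IRF3, IRF5 and IRF7, 16 were well above background on both arrays and 0 were 2-fold higher or lower, with differences from -0.38 (Slc15a4, the endolysosomal transporter needed for IRF5 activation) to 0.30 (Sting1, the adaptor of cytosolic DNA sensing) and a median of 0.06. Tbk1, the kinase of IRF3, differed by 0.08, and Myd88 by -0.05. Of the regulators of IRF proteins and genes, 15 of 15 were within 2-fold, again near the share of all genes, with a median of 0.03. Among them Kdm6b, the histone demethylase linked to Irf4 induction, differed by 0.13, and Tnfaip3, an NF-kappaB inhibitor, by 0.68.

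The DNA-binding partners stood apart through 1 gene. Batf3, a basic leucine zipper factor that binds composite sites with JUN and IRF4 or IRF8, read 312 in untreated BMDMs and 6271 after IL-4 and was 18.8-fold higher. Its relatives Batf and Batf2 were 1.65-fold and 1.47-fold higher. Jun and Junb were 1.42-fold and 1.33-fold higher, and Spi1, which encodes PU.1, was 1.18-fold higher. Of the 12 partners 10 were measured, and 1 was at least 2-fold higher and 0 were lower (2.86% and 4.47% of all genes). The median was 0.32.

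The genes that make and sense interferon gave no sign of ligand transcripts on either array. The probes for Ifnb1, Ifna4, Ifna2 and Ifng were at background on both. The receptor genes Ifnar1 and Ifnar2 differed by 0.01 and -0.04 and Ifngr1 and Ifngr2 by 0.18 and 0.40. Jak2, the kinase shared by the interferon gamma receptor and many cytokine receptors, read 1518 and 3694 and was 2.27-fold higher. Of this list of 13, 8 were measured, and 1 was at least 2-fold higher and 0 were lower (2.86% and 4.47% of all genes). The median was 0.13. Stat2, a partner of Irf9 in the response to type I interferon, differed by 0.28.

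Targets of the family did not share 1 direction. Of 24 type I interferon-stimulated genes, 21 had a matched probe, 3 were higher by 2-fold or more and 1 was lower (2.86% and 4.47% of all genes), with a median of 0.15. The 3 were Usp18, a brake on interferon receptor signalling, at 2.74-fold, the nucleic acid sensor Zbp1 at 2.68-fold, and Ifit1 at 2.02-fold or more, with untreated intensities of 85.2, 229 and 25.7. Ifi44 was at least 3.45-fold lower, and Isg15, Oas2 and Rtp4 differed by 0.61, -0.23 and 0.03. Zbp1 had a second probe that was well above background and dimmer, and the value is that of the brighter.

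Of 24 genes linked to IRF1 and IRF8, 23 were measured on at least 1 array, 2 were higher by 2-fold or more and 1 lower (2.86% and 4.47% of all genes), with a median of 0.00. Gbp5, an interferon-inducible GTPase, was 2.85-fold higher from an untreated intensity of 54.0, and Klf4, a factor downstream of IRF8 in monocytes, was 2.05-fold higher. The chemokine Cxcl9 was 2.09-fold lower, with an IL-4 signal of 29.3 that was not well above background. The antigen transporter genes Tap1 and Tap2 differed by -0.06 and 0.06. The immunoproteasome genes Psmb8 and Psmb9 differed by 0.27 and 0.20, and the third, Psmb10, read 13020 and 26944 and was 1.93-fold higher. Of 8 genes linked to IRF5, 5 were measured, with a median of 0.28. Ccl4 and Il6 were 2.75-fold and 2.14-fold higher, Il6 from a dim untreated intensity of 65.6 to 150. Tnf, Ccl3 and Il1b differed by 0.28, 0.28 and -0.29.

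The genes linked to IRF4 differed most. Of 12, 9 were detected on either array, and 7 were 2-fold or more higher and 0 lower (2.86% and 4.47% of all genes). The median was 2.42, which counts bounds at their value. Arg1, the arginase of M2 macrophages, read 84.9 and 19688 and was 216-fold higher. Retnla, a resistin-like secreted protein, and Pdcd1lg2, a ligand of PD-1, were at least 595-fold and 89.9-fold higher. Both were detected on the IL-4 array only, so they could only differ upward. Chil3, Mrc1, Ccl17 and Mgl2 were 14.2-fold, 5.33-fold, 4.98-fold and 2.44-fold higher. Ciita and Prdm1, which IRF4 regulates in B cells and plasma cells, differed by -0.25 and 0.00, and Ccl22, Cd209a and Il10 were at background on both arrays. Many of these are textbook IL-4 genes that STAT6 also drives, and what Irf4 contributed to their levels was not tested. As the list was chosen with earlier results of these data known, its lead over the other lists is not a test.

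The receptor pathway that carries the IL-4 signal differed in its feedback genes. Of 9 genes, 2 were at least 2-fold higher and 0 lower (2.86% and 4.47% of all genes), with a median of 0.07. The feedback inhibitors Cish and Socs1 were 25.4-fold and 20.7-fold higher. Il4ra, Il2rg and Stat6 differed by 0.10, 0.23 and -0.29, and Il13ra1 was 1.53-fold lower.

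**Figure D5:**
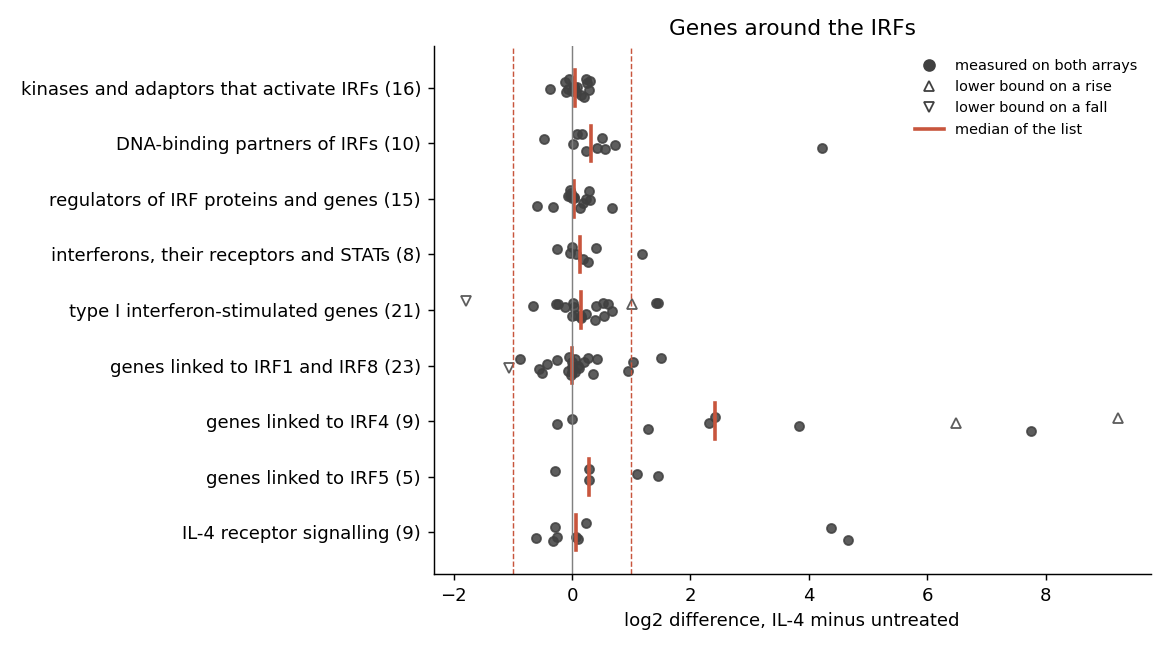
Log2 difference (IL-4 minus untreated) of the genes in 9 lists around the IRF family, 1 symbol per gene detected on either array (number in parentheses), with triangles for bounds, red bars for the median of each list and dashed lines at 2-fold. The genes linked to IRF4 reach furthest to the right, Batf3 stands alone among the DNA-binding partners, and the kinases and adaptors lie within 2-fold.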

How the data were processed

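RNA from 1 untreated and 1 IL-4-treated BMDM sample was measured, and conditions were taken from the labels. The authors deposited Feature Extraction 10.10.1.1 output, in which spot intensity is background-subtracted and detrended but not scaled between arrays, and their own processed log2 values, whose centring is not stated. The difference between those 2 columns was within 0.000564 of the scanner difference for every IRF probe (the column medians were 0.16 untreated and 0.02 IL-4). Spots flagged as outliers were left out, log2 values averaged per probe, and the 75th percentile of each array subtracted (9.84 untreated, 9.94 IL-4). The software's flag called 59.8% and 57.4% of gene spots well above background. Genes were read from the brightest probe and named through RefSeq accessions in a GRCm38.p6 table, which matched 27229 of 39424 probes. The array was annotated on mm9, and only promoter coordinates, on GRCm38.p6, are given. A probe with this flag on 1 array only gives a bound, for which the dim array's value is the larger of the probe's signal and that array's lowest flagged signal. Where the probe's own signal is the larger, as for Irf4 and Cxcl9, the bound equals the plain ratio. A probe with it on neither array gives no fold.

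The error model's SE combined both spot errors, and the spot SD came from probes printed in 10 spots within 1 log2 unit of signal. For the bright IRF probes the software's error was close to 10.0% of the signal, so an SE of 0.20 reflects that model and not repeated measurement. Named are all 8 members, list genes at least 2-fold changed, and the 3 genes nearest to the members with the largest difference in each direction. Other list genes were named after their values were seen. The members and lists were chosen with earlier results of these data known. Counting was checked on simulated data in which every probe was set as well above background, so the rules for bounds and dim signals were not checked. Some list genes are not reported here. Alternatives were median, quantile, cyclic loess, spike-in (7 probes) and no scaling, the percentile over detected probes, normexp (offset of 50), the authors' values, other rules for probes, outlier spots and dim signals, and a 1.5-fold cutoff. Python 3.11.15, numpy 2.4.6, pandas 2.3.3, matplotlib 3.10.9, R 4.3.3 and limma 3.58.1 were used.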

Additional observations from a re-analysis of the deposited data

How the results depend on the processing

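The count of IRF genes at least 2-fold higher was 2 as reported and stayed at 2 except under 3 settings. It was 1 with normexp, where Irf7 fell to 0.84 and Irf4 to 2.99, 1 when only genes measured on both arrays were counted, and 4 at a 1.5-fold cutoff. No IRF gene was at least 2-fold lower under any setting run. The median log2 difference of the IRF genes, 0.43 as reported, was 0.65 with median scaling, 0.36 with quantile normalization, 0.53 with no scaling, 0.38 with the 75th percentile over detected probes, 0.72 with spike-in scaling, 0.37 with normexp and 0.26 over the genes measured on both arrays, which leaves out Irf4. It stayed within the spread between spots with cyclic loess, the authors' processed values, the median over probes, outlier spots kept and no filter on dim probes. All of these but cyclic loess could hardly change it. Each IRF gene had 1 detected probe, no IRF spot was flagged as an outlier, and the bound of Irf4 equals its plain difference. The authors' values gave nearly the same differences for every IRF probe. Irf1 ranged from 0.54 to 0.89, Irf2 from 0.58 to 0.93, Irf3 from 0.09 to 0.45, Irf5 from 0.15 to 0.54 and Irf7 from 0.84 to 1.63. The cause of the shift with normexp was not tested. Over all genes, 39.0% of those at least 2-fold changed were higher as reported, 65.8% with spike-in scaling and 25.4% with no filter on dim probes. With 1 array per condition no replicate could be left out. No paired analysis was possible because there were no replicates. Signals near background, such as Irf4 and Gbp5 in untreated BMDMs, limit the precision of their folds.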
